A study of Homo sapiens with 6 samples.

Results

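The miR-183/miR-96/miR-182 cluster is a polycistron of 3 miR hairpins, and miR-1271-5p is a miR from another chromosome that carries the seed of miR-96-5p. Their levels were examined in small RNA libraries of HEK293T, a line of human embryonic kidney cells, after knock-down (KD) of the ribosomal protein RPL24. The 6 miRs were chosen by name from the 2588 miR names of the count table: hsa-miR-183-5p, hsa-miR-183-3p, hsa-miR-96-5p, hsa-miR-182-5p, hsa-miR-182-3p and hsa-miR-1271-5p, where hsa stands for Homo sapiens. All 6 had reads. The filter on low counts passed 4 of them, miR-183-5p, miR-96-5p, miR-182-5p and miR-1271-5p, which were tested among 360 miRs in all, while miR-183-3p and miR-182-3p were too rare to be tested. The groups were 3 libraries of cells given 50 nM of siPOOLs (mixtures of many siRNAs) against RPL24 and 3 libraries of cells given non-targeting siPOOLs (NC), all harvested 72 h later. The labels describe a miR-608 plasmid given to both groups 48 h after the siPOOLs and 24 h before harvest. Since no library had a read of miR-608 (0 counts in all 6), it is unclear whether the sequenced cells received it. All libraries come from 1 cell line, and nothing says whether they were separate cultures, so that p-values measure only the spread between these libraries, which may be technical.

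The hairpins of a polycistron are transcribed together as a single primary transcript and are cut out one by one by the microprocessor, after which Dicer removes the loop and leaves a duplex of a 5p and a 3p arm. Usually one arm, the guide, is kept in the silencing complex, and the other, the passenger, is lost. A miR recognises its targets mainly through its seed, bases 2 to 8 from the 5′ end. The miR-183/miR-96/miR-182 cluster is best known from sensory cells of the eye, the inner ear and the olfactory epithelium, where changes in the miR-96 seed cause hearing loss, and it is also abundant in many carcinomas, where miR-96-5p and miR-182-5p are known to target the transcription factor FOXO1.

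The mature sequences, from RefSeq on GRCh38.p14, are shown 5′ to 3′ with the seed in capitals, because the members are related through this stretch.
miR-183-5p: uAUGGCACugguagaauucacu
miR-96-5p: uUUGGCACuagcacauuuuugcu
miR-182-5p: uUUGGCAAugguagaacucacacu
miR-1271-5p: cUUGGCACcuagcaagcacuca
miR-183-3p: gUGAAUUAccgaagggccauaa
miR-182-3p: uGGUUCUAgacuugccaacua
With positions counted from 1 at the 5′ end and miR-96-5p as the reference, the miR-182-5p seed differs by C8A, so that both share bases 2 to 7. The miR-183-5p seed differs from that of miR-96-5p by U2A. The seed of miR-1271-5p is identical to that of miR-96-5p, and the first base of the miR, outside the seed, differs by U1C. Beyond the seed the guide arms are less alike. By edit distance, the smallest number of single-base changes that turns one sequence into the other, miR-96-5p and miR-1271-5p lie 9 apart, and the closest pair, miR-183-5p and miR-182-5p, lies 5 apart. Each of these was also the nearest mature miR of the RefSeq table to the other, and the nearest miR to any of the other 4 members was at least 7 changes away. How the authors counted reads that fit several miRs is not given in the sources used here.

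In the GENCODE 29 annotation of GRCh38, the 3 hairpins lie on the minus strand of chromosome 7, MIR183 at chr7:129774905-129775014, MIR96 at chr7:129774692-129774769 and MIR182 at chr7:129770383-129770492. MIR183 and MIR96 are 135 bases apart and MIR96 and MIR182 4199 bases apart, within a span of 4632 bases. No other annotated gene overlaps any of the 3, and the nearest is the lincRNA AC084864.1, 8356 bases from MIR183. MIR1271 lies on the plus strand at chr5:176367946-176368031. It is within ARL10, a protein-coding gene of the same strand, in an intron of 2 transcripts and an exon of 0. The mature miR-1271-5p spans chr5:176367960-176367981.

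The hairpins of MIR182 and MIR96, as far as the RefSeq table gives them, are shown with both mature arms in capitals, the guide arm first, to show which strands the counts of each arm stand for.
MIR182: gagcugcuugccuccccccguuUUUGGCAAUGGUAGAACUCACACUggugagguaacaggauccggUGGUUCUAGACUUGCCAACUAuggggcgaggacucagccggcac
MIR96: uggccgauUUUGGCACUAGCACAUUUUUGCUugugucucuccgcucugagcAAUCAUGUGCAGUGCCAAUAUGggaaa

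Total counts lay between 406905 and 611745 in RPL24 KD libraries and between 398721 and 565104 in NC libraries. Levels are given in CPM, a count relative to the normalized size of its library, and 3 counts in a library, taken as the floor of detection, correspond to between 4.99 and 7.52 CPM. These floors, like the intervals of counts and shares, hold only the error of counting, because several reads can stem from a single molecule. In each group 1 library, whose number in the table matches no label, is called unnumbered. RPL24 mRNA is not measured in small RNA libraries, so the KD was not checked here. No miR defines HEK293T. Markers of blood and liver, and miR-124-3p as the 1 neuronal marker, each summed to at most 20.0 CPM in any library, while miR-9-5p, a miR of neural tissue that is on no marker list, had a mean of 5217 CPM after RPL24 KD and 5100 CPM in NC. The markers of epithelium summed to between 92.7 and 119 CPM. The muscle markers miR-1-3p, miR-133a-3p and miR-206 summed to 245 to 273 CPM after RPL24 KD and 322 to 367 CPM in NC, with miR-206 at 0 counts in all 6 libraries. The part of these differences in the results for the members was not tested.

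miR-1271-5p was higher after RPL24 KD, while the levels of the 3 guide arms of the cluster were 0.793 to 0.879 of those in NC and did not pass the test over all miRs. In such bulk libraries, fewer cells with a miR and less of it per cell cannot be told apart. Among the 360 miRs, 18 (5.00%) passed as differentially expressed (DE), with an adjusted p under 0.05 in edgeR's quasi-likelihood test with Benjamini-Hochberg adjustment, 12 (3.33%) higher and 6 (1.67%) lower after RPL24 KD. With total counts in place of TMM scaling the split was 10 higher and 18 lower. Of the 4 members tested, 1 was DE, miR-1271-5p, and 0 were lower by that test, although all 4 had an unadjusted p under 0.05, as had 85 (23.6%) of the 360 miRs. DESeq2 and limma also called 1 of the 4, whereas with total counts all 4 were called, 3 of them lower. The authors' own DESeq2 analysis listed miR-1271-5p as increased and also miR-183-5p as decreased, at an adjusted p under 0.05. In the DESeq2 run here, with default filtering, miR-183-5p had a log2 fold change of -0.21 and missed the threshold (DESeq2, adjusted p = 0.0602). In normalized counts the 3 RPL24 KD libraries lay entirely above the 3 NC libraries for 1 member and entirely below them for the other 3, as they did for 27.5% of the tested miRs, 14.7% above and 12.8% below. The median log2 fold change was -0.21 over the 4 tested members and -0.01 over all 360 miRs.

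**Figure D1:**
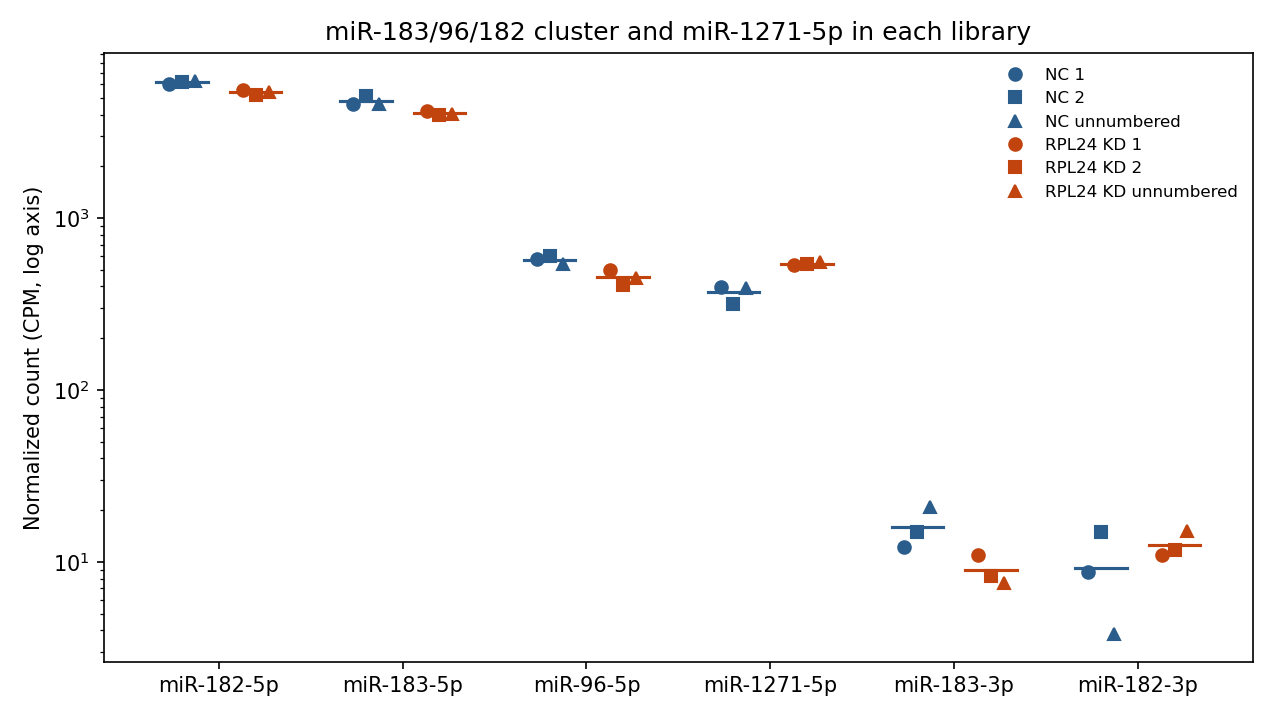
Normalized counts (CPM, log axis) of the 6 miRs in each of the 3 NC (blue) and 3 RPL24 KD (red) libraries, with a bar at each group mean. miR-182-5p and miR-183-5p lie between 3968 and 6299.8 CPM, miR-96-5p and miR-1271-5p between 315 and 600.0 CPM with their order exchanged between the groups, and both 3p arms at or below 20.9 CPM.

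miR-182-5p, the guide arm of the last hairpin, was the most abundant member, with a mean of 5778 CPM over the 6 libraries and rank 33 of the 1205 miRs with reads. miR-183-5p followed at rank 39 with 4428 CPM. Since both are counted by whole reads of nearly equal length, no correction for length was made, but ligation of adapters differs between sequences, and levels of different miRs are therefore less comparable than those of 1 miR across libraries. miR-182-5p exceeded miR-183-5p in 6 of 6 libraries. miR-96-5p and miR-1271-5p were rarer, at ranks 105 and 112 with 513 and 456 CPM. The order of this last pair differed between the groups, as described below. The passenger arms miR-183-3p and miR-182-3p came last, at ranks 403 and 427 with 12.5 and 10.9 CPM, and were too rare to be tested.

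hsa-miR-1271-5p, from the ARL10 intron, had 530.3, 542 and 556 CPM in RPL24 KD replicate 1, replicate 2 and the unnumbered RPL24 KD library. In NC replicate 1, replicate 2 and the unnumbered NC library it had 399, 315 and 394 CPM. All RPL24 KD libraries were thus higher than all NC libraries, and the lowest value belonged to NC replicate 2. The means were 543 ± 12.9 CPM (SD, n = 3) after RPL24 KD and 369 ± 47.2 CPM (SD, n = 3) in NC, and the log2 fold change came to 0.54 (standard error 0.107, 95% interval 0.31 to 0.77, edgeR adjusted p = 0.0132). It ranked number 5 of the 360 tested miRs by p-value. Without RPL24 KD replicate 2 the log2 fold change was 0.55 and the call was lost (edgeR, adjusted p = 0.0566).

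hsa-miR-183-5p, the guide arm of the first hairpin, had 4200.4, 3968 and 4048 CPM in the same order of RPL24 KD libraries. The NC libraries had 4625, 5107 and 4620.1 CPM. The groups did not overlap, and NC replicate 2 stood highest. The means were 4072 ± 118 CPM (SD, n = 3) after RPL24 KD and 4784 ± 280 CPM (SD, n = 3) in NC, and the log2 fold change came to -0.23 (standard error 0.0667, 95% interval -0.37 to -0.09, edgeR adjusted p = 0.0569). Without NC replicate 2 the log2 fold change was -0.16 (edgeR, adjusted p = 0.276), and without the unnumbered NC library it was -0.25 and passed the threshold (edgeR, adjusted p = 0.00813).

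hsa-miR-96-5p, the guide arm of the middle hairpin, had 501, 408 and 451 CPM after RPL24 KD. It had 577, 600.0 and 538 CPM in NC. These groups did not overlap either, with RPL24 KD replicate 2 lowest. The means were 453 ± 46.7 CPM (SD, n = 3) and 572 ± 31.1 CPM (SD, n = 3), and the log2 fold change was -0.33 (standard error 0.104, 95% interval -0.56 to -0.11, edgeR adjusted p = 0.0729). Without RPL24 KD replicate 2 the log2 fold change was -0.24 (edgeR, adjusted p = 0.349). Without the unnumbered NC library it was -0.38 and passed the threshold (edgeR, adjusted p = 0.0324), as in no other fit without 1 library.

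hsa-miR-182-5p had 5572, 5231 and 5419 CPM after RPL24 KD. The NC libraries had 5989, 6159.5 and 6299.8 CPM. The lowest NC library thus lay above the highest RPL24 KD library. The means were 5407 ± 171 CPM (SD, n = 3) and 6150 ± 155 CPM (SD, n = 3), and the log2 fold change was -0.19 (standard error 0.0607, 95% interval -0.32 to -0.06, edgeR adjusted p = 0.0855). Together the 3 guide arms made up from 0.944% to 1.01% of the counts of an RPL24 KD library and from 1.13% to 1.19% of those of an NC library. Their summed level was 9933 ± 333 CPM (SD, n = 3) after RPL24 KD and 11505 ± 340 CPM (SD, n = 3) in NC.

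Ratios of counts within a library do not depend on how libraries are scaled to each other, so 6 ratios between members were compared. With 3 libraries against 3, the two-sided exact permutation test cannot give a p under 0.1. The ratio of miR-1271-5p to miR-96-5p, which share a seed, was 1.06, 1.33 and 1.23 in the RPL24 KD libraries. It was 0.691, 0.526 and 0.733 in the NC libraries. Thus miR-1271-5p was the more frequent bearer of the seed in 3 of 3 RPL24 KD libraries and the less frequent in 3 of 3 NC libraries. The mean log2 ratio was 0.26 ± 0.17 (SD, n = 3) in RPL24 KD libraries and -0.64 ± 0.26 (SD, n = 3) in NC libraries. The difference was 0.90 (standard error 0.176, exact permutation p = 0.1, adjusted p = 0.3 over the 6 ratios). Normalized levels of miR-1271-5p were higher, and those of miR-96-5p lower, in every RPL24 KD library than in any NC library. Their ratio therefore had to separate the groups, and its p had to equal the floor of 0.1. The ratio thus restates the levels of these miRs and is no further evidence.

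The share of miR-1271-5p in the counts with this seed is the ratio of miR-1271-5p to miR-96-5p in another form. It was 54.6 ± 2.89% (SD, n = 3) in the RPL24 KD libraries, against 39.2 ± 4.18% (SD, n = 3) in the NC libraries. Pooled over the libraries of a group, these were 838 of 1537 counts (54.5%, exact 95% interval 52.0 to 57.0%) and 562 of 1416 counts (39.7%, exact 95% interval 37.1 to 42.3%). The sum of miR-96-5p and miR-1271-5p was 1031, 950.1 and 1007 CPM after RPL24 KD against 976, 915 and 933 CPM in NC, and the groups overlapped. With miR-182-5p added, so that all miRs with the shared bases 2 to 7 among the members are counted, the sum was 6403 ± 212 CPM (SD, n = 3) after RPL24 KD and 7091 ± 134 CPM (SD, n = 3) in NC, without overlap. Most of this sum was miR-182-5p, with means of 5407 CPM after RPL24 KD and 6150 CPM in NC, whose groups did not overlap by itself.

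Within the cluster the guide arms stood in similar proportions in both groups. miR-182-5p took 54.4 ± 0.20% (SD, n = 3) of the counts of the 3 guide arms in RPL24 KD libraries, against 53.5 ± 1.54% (SD, n = 3) in NC. miR-183-5p took 41.0 ± 0.264% (SD, n = 3) and 41.6 ± 1.37% (SD, n = 3), and miR-96-5p 4.56 ± 0.317% (SD, n = 3) and 4.97 ± 0.241% (SD, n = 3). The log2 ratio of miR-182-5p to miR-183-5p differed by 0.05 between the groups (standard error 0.0517, exact permutation p = 0.6, adjusted p = 0.6). That of miR-96-5p to miR-183-5p differed by -0.11 (standard error 0.0696, exact permutation p = 0.3, adjusted p = 0.36), and that of miR-182-5p to miR-96-5p by 0.15 (standard error 0.0849, exact permutation p = 0.2, adjusted p = 0.36). In these last 3 ratios the groups overlapped, so that no difference among the hairpins was detectable, which does not show that they changed alike.

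The passenger arms were rare. hsa-miR-183-3p had 6, 5 and 3 counts in the RPL24 KD libraries and 7, 6 and 11 in the NC libraries, or 10.97, 8.32 and 7.52 CPM against 12.2, 15.0 and 20.9 CPM. The groups did not overlap in CPM, with the unnumbered NC library highest. Over the groups the ratio of RPL24 KD to NC was 0.565 from 14 against 24 counts, with an exact 95% counting interval of 0.270 to 1.14 that includes 1. hsa-miR-182-3p had 6, 7 and 6 counts after RPL24 KD and 5, 6 and 2 in NC, where the unnumbered library was below the floor of 3 counts. Its groups overlapped, and the ratio was 1.42 from 19 against 13 counts (exact 95% counting interval 0.664 to 3.12).

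Guide and passenger arms of a hairpin were very unequal. miR-183-3p took 38 of the 13460 counts of its hairpin over the 6 libraries (0.282%, exact 95% interval 0.20 to 0.387%), and miR-182-3p 32 of 17597 (0.182%, exact 95% interval 0.124 to 0.257%). Of the arms that are not members, miR-96-3p had 1 count in RPL24 KD replicate 1 and 0 elsewhere, against 1553 counts of miR-96-5p. miR-1271-3p had 12 counts after RPL24 KD and 15 in NC, or 27 of the 1427 counts of its hairpin (1.89%, exact 95% interval 1.25 to 2.74%). Its ratio of RPL24 KD to NC was 0.775 (exact 95% counting interval 0.331 to 1.77), an interval that holds 1 and reaches above the 1.47-fold mean difference of miR-1271-5p. The log2 ratio of miR-183-5p to miR-183-3p was higher by 0.53 after RPL24 KD (standard error 0.251, exact permutation p = 0.1, adjusted p = 0.3). With 1 instead of 0.5 added to both counts, this difference was 0.48 (exact permutation p = 0.2). The log2 ratio of miR-182-5p to miR-182-3p differed by -0.75 (standard error 0.546, exact permutation p = 0.3, adjusted p = 0.36). The share of miR-183-3p had exact 95% intervals that overlap, 0.121 to 0.372% after RPL24 KD and 0.215 to 0.499% in NC, and at 11 counts or fewer per library a change in arm use was not detectable.

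The behaviour of each member across the libraries was compared with that of all other tested miRs by the root mean square difference of their log2 CPM over the 6 libraries, each miR centred on its own mean. This measure holds the difference between the groups and is a description. miR-183-5p was the second nearest of 359 miRs to miR-182-5p, at 0.0564, where the median miR lay at 0.209. The nearest to both was miR-26b-5p, at 0.0318 from miR-182-5p and 0.0471 from miR-183-5p, followed for miR-183-5p by miR-766-3p at 0.0485 and miR-32-5p at 0.0563. The third nearest to miR-182-5p was miR-140-3p at 0.0565. miR-96-5p stood at place 12 for miR-183-5p and place 44 for miR-182-5p. For miR-1271-5p the nearest was hsa-miR-641 at 0.0991, with 432 ± 5.14 CPM (SD, n = 3) after RPL24 KD and 321 ± 18.4 CPM (SD, n = 3) in NC (log2 fold change 0.42, edgeR adjusted p = 0.0288), followed by miR-7-1-3p at 0.115 and miR-1257 at 0.124. From miR-1271-5p, miR-96-5p was at place 284 of 359, at 0.481, where the median miR lay at 0.349.

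Several lists of related miRs were set beside the members. Of 20 miRs whose seed equals that of a guide arm of the cluster or differs from it at 1 base, 15 had reads and 6 were tested, and 0 were DE by edgeR, DESeq2 or limma, with 3 at an unadjusted p under 0.05, which 23.6% of all tested miRs had. Since 5.00% of all tested miRs were DE by edgeR, 0 of 6 does not set these miRs apart. Their log2 fold changes lay between -0.34 and 0.14 with a median of -0.04. miR-92a-3p, which is a guide arm of the miR-17-92 cluster, had a difference of 0.14 on the log2 scale (edgeR, adjusted p = 0.111). In miR-652-3p it was -0.34 (edgeR, adjusted p = 0.133), and in miR-450b-5p -0.23 (edgeR, adjusted p = 0.133). The relatives miR-25-3p, miR-92b-3p and miR-32-5p had log2 fold changes of 0.05, 0.08 and -0.14. The list covers only miRs with a RefSeq sequence, 319 of the 360 tested.

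Of 14 miRs encoded within 2 Mb of MIR183 or MIR1271, miR-96-3p and miR-1271-3p included, 10 had reads and 3 were tested. Of the 3, 0 were DE by edgeR, DESeq2 or limma, and 0 had an unadjusted p under 0.05. Over all tested miRs, 23.6% had such a p and 5.00% were DE by edgeR, so that 0 of 3 does not set these miRs apart. The log2 fold change was 0.05 for miR-29a-3p (edgeR, adjusted p = 0.789), -0.26 for miR-29b-3p (edgeR, adjusted p = 0.745) and 0.02 for miR-129-5p (edgeR, adjusted p = 0.978). Both miR-29b-3p and miR-129-5p are also encoded by a hairpin on another chromosome, so their reads cannot be assigned to this neighbourhood alone. The untested neighbours had at most 27 counts over all libraries, among them miR-29a-5p and miR-29b-1-5p with 4 and 7 counts.

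Of 10 miRs known from retina and inner ear, 8 were tested, and 0 were DE by edgeR, DESeq2 or limma, with 1 at an unadjusted p under 0.05. Their median log2 fold change was 0.03. miR-9-5p, a neural miR, was close in level to miR-182-5p and miR-183-5p, with 5217 ± 85.5 CPM (SD, n = 3) after RPL24 KD and 5100 ± 306 CPM (SD, n = 3) in NC. miR-181a-5p had a difference of 0.30 on the log2 scale (edgeR, adjusted p = 0.0912), and miR-181b-5p, miR-18a-5p, miR-194-5p and miR-125b-5p lay between -0.09 and 0.09. Of 6 further miRs reported to target FOXO1 or FOXO3, 3 were tested and 0 were DE by edgeR, DESeq2 or limma. Of the 3, 1 had an unadjusted p under 0.05. Beside either list, 23.6% of all tested miRs had such a p and 5.00% were DE by edgeR, so that 0 DE miRs in lists this short does not set them apart. miR-27a-3p, which targets FOXO1 as miR-96-5p and miR-182-5p do, had a difference of 0.17 on the log2 scale (edgeR, adjusted p = 0.374). miR-132-3p had 0.51 (edgeR, adjusted p = 0.133) and miR-139-5p -0.53 (edgeR, adjusted p = 0.282). The median log2 fold change of the 3 was 0.17, beside -0.01 over all tested miRs. miR-370-3p and miR-155-5p had 14 and 1 counts in all and were not tested.

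The direction of the 4 tested members was the same in all 17 other settings tried, while the calls were not. As the groups of each member did not overlap, leaving libraries out could hardly reverse a direction, and all settings used the same counts. The shared direction is therefore no independent evidence. miR-1271-5p was DE in 11 of 11 settings of scaling, filter, tool or numbered libraries and in 5 of 6 fits that left out 1 library. The guide arms of the cluster passed the threshold in 5 of these 11 settings for miR-183-5p, 5 for miR-96-5p and 3 for miR-182-5p, and in 1, 1 and 0 of the 6 fits without 1 library.

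**Figure D2:**
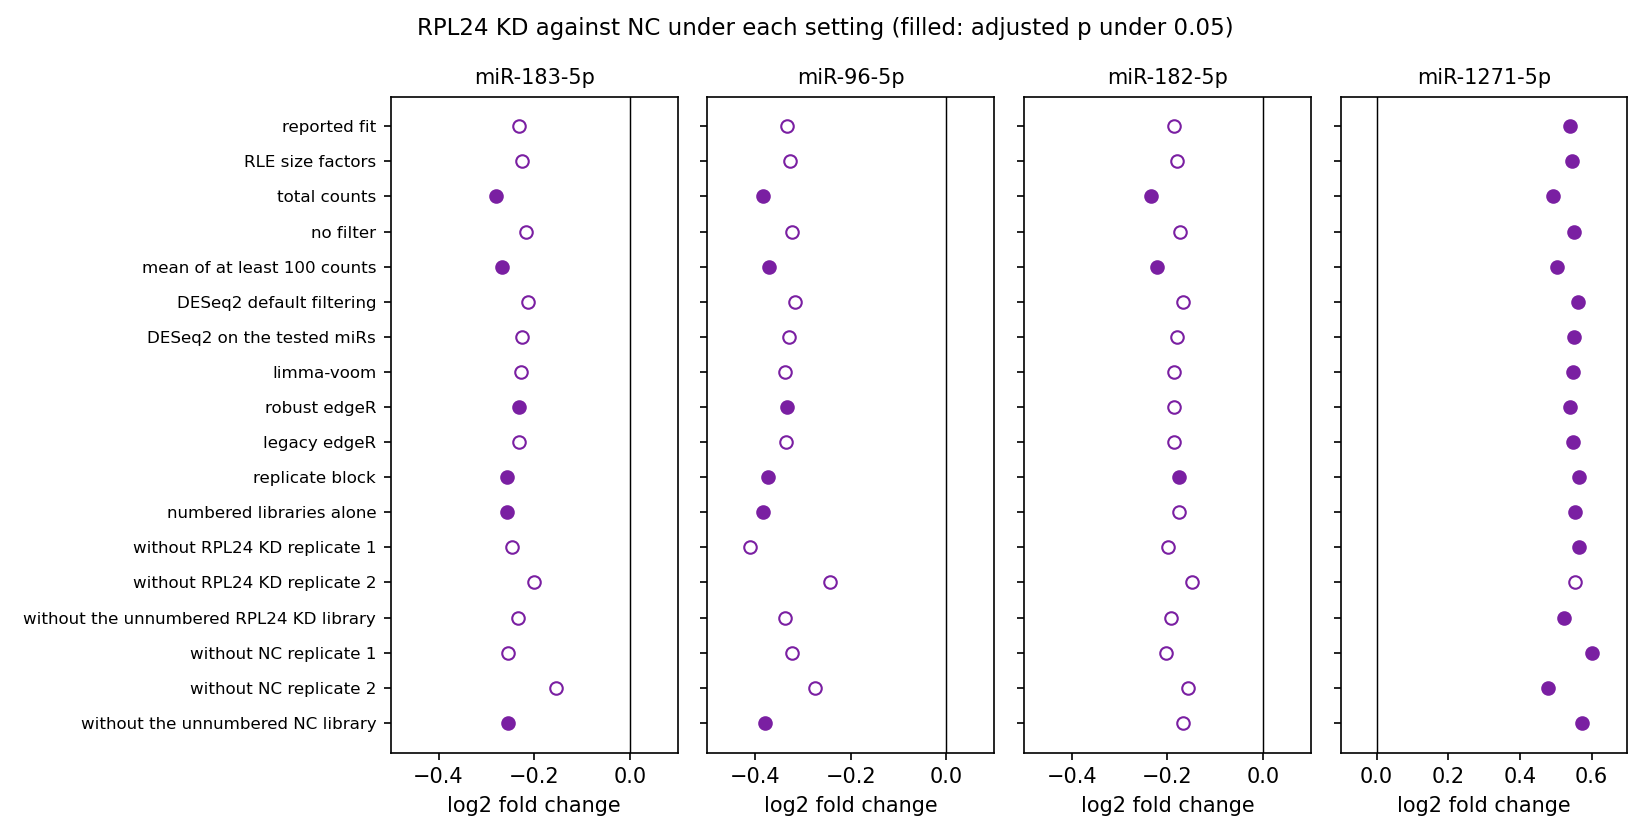
Log2 fold changes, RPL24 KD over NC, of the 4 tested members under the reported fit and 17 other settings, with filled points where the adjusted p was under 0.05. All points of miR-1271-5p lie between 0.48 and 0.60, and those of the guide arms of the cluster between -0.41 and -0.15, most of them open.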

How the data were processed

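The data are small RNA libraries, 3 of RPL24 KD and 3 of NC cells, each made from 800 ng of total RNA. The authors checked reads with FastQC (0.11.9 per the labels), used Flexbar for trimming and miRExpress for alignment to miRBase, and deposited raw read counts per mature miR, without normalization. Groups came from the sample titles. The titles of the NC samples also mention RPL24 KD, but their treatment label is non-targeting siPOOLs. The third column of each group has a number that no title has and entered by its group alone.

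Depth lay between 398721 and 611745 counts in a library. edgeR 4.0.16 (R 4.3.3) was run on these counts over all miRs: TMM, filterByExpr with a minimum count of 10, quasi-likelihood test with bias-adjusted deviances and no replicate block, adjusted p under 0.05. Standard errors are those implied by the F statistic. DESeq2 1.42.0 and limma 3.58.1 were alternatives, beside other scalings, filters and sets of libraries. Ratios had a pseudocount of 0.5 added to both counts and were compared by the exact permutation test, and intervals of shares are Clopper-Pearson. The fits were tested on simulated data. RefSeq held a mature sequence for 2281 of the 2588 names and all 6 members, and hairpin positions came from GENCODE 29, both on GRCh38, since the count table holds no coordinates. Neighbouring miRs were found by RefSeq position or by their sequence within a neighbouring RefSeq hairpin.

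Named were the members, up to 6 miRs with reads of each list by mean count, the 3 miRs nearest in pattern to each of miR-1271-5p, miR-183-5p and miR-182-5p, and marker miRs. miR-608 was named because of the plasmid. The members and lists were chosen with earlier results of these data known, so neither is independent evidence.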

Additional observations from a re-analysis of the deposited data

How the results depend on the processing

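Legacy edgeR was added after seeing the data. The number of DE miRs, 18, became 28 with total counts, 31 without a filter, 34 with robust edgeR and 34 with the numbered libraries alone, and 4 to 29 without 1 library, with 7 without RPL24 KD replicate 1, 4 without RPL24 KD replicate 2 and 29 without the unnumbered NC library. Those higher, 12, became 4 to 14 without 1 library, and those lower, 6, became 18 with total counts, 16 without a filter, 17 at a mean of at least 100 counts, 16 with robust edgeR, 10 with legacy edgeR, 19 with the numbered libraries alone and 0 to 15 without 1 library. The 0 lower miRs arose in edgeR without RPL24 KD replicate 1, where 63 miRs in both directions had an unadjusted p under 0.05, and without RPL24 KD replicate 2, where 58 had, and the higher counts without NC replicate 1, with 12, and without the unnumbered NC library, with 15. DESeq2 was not run without 1 library.

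Members called, 1 in the reported fit, became 4 with total counts, 4 at a mean of at least 100 counts, 3 with robust edgeR, 3 with the numbered libraries alone, and 0 to 3 without 1 library, with 0 (2 at an unadjusted p under 0.05, edgeR) without RPL24 KD replicate 2 and 3 without the unnumbered NC library. For miR-183-5p the log2 fold change passed the threshold at -0.28 with total counts, -0.27 at a mean of at least 100 counts, -0.23 with robust edgeR and -0.26 with the numbered libraries alone, and ranged from -0.25 to -0.16 without 1 library. For miR-96-5p it passed at -0.38 with total counts, -0.37 at a mean of at least 100 counts, -0.33 with robust edgeR and -0.38 with the numbered libraries alone, and ranged from -0.41 to -0.24 without 1 library. For miR-182-5p it passed at -0.23 with total counts and -0.22 at a mean of at least 100 counts, and ranged from -0.20 to -0.15 without 1 library. That of miR-1271-5p ranged from 0.48 to 0.60 without 1 library.

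With the replicate number as a block, on the 4 numbered libraries, 52 miRs were DE, 28 higher and 24 lower, and 4 members were called, with log2 fold changes of -0.26 for miR-183-5p, -0.37 for miR-96-5p, -0.18 for miR-182-5p and 0.57 for miR-1271-5p. The deviations of same-numbered libraries had a correlation of -0.03 across the 360 tested miRs and -0.21 across the 166 most abundant of them, and the numbers gave no sign of pairing. What caused these shifts was not tested. The difference in the log2 ratio of miR-182-5p to miR-183-5p, 0.05, ranged from -0.0012 without NC replicate 2 to 0.0873 without the unnumbered NC library. All other ratios kept their sign without 1 library, but differences moved: that of miR-182-5p to miR-182-3p, -0.75, was -0.27 without the unnumbered NC library and -1.17 without NC replicate 2, that of miR-183-5p to miR-183-3p, 0.53, was 0.31 without the unnumbered NC library, and that of miR-96-5p to miR-183-5p, -0.11, was -0.05 without RPL24 KD replicate 2. That of miR-1271-5p to miR-96-5p ranged from 0.76 to 0.99. With 3 libraries in a group, leaving 1 out must move a mean share by less than 1 SD, so this measure cannot show stability. The mean share of miR-1271-5p in the counts with its seed ranged from 53.3 to 56.2% in RPL24 KD libraries without 1 library. In NC libraries it ranged from 37.6 to 41.6%.

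Depth limits the 3p arms, with at most 11 counts in a library.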
